A study of Mus musculus with 15 samples.

Results

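The V-ATPase, or vacuolar proton pump, was followed through 10 genes chosen by name: the V0 genes Atp6v0c, Atp6v0d1, Atp6v0e and Tcirg1, the V1 genes Atp6v1a, Atp6v1b2, Atp6v1d and Atp6v1e1, and the accessory genes Atp6ap1 and Atp6ap2. Of these, 9 have at least 1 probe set annotated to that single symbol, with 13 probe sets in all, out of 8251 genes and 12422 probe sets tested. The 10 genes were chosen with earlier results of these data known, so the shares over all genes given beside them are descriptions. The signal of Atp6v0c, the proteolipid of the rotor ring, was not analysed here, and only its promoter was read. RNA came from RAW 264.7, a mouse macrophage-like cell line that can form osteoclasts in culture, and each of 15 Affymetrix arrays holds the RNA of 1 sample. Cells cultured with RANKL, the cytokine that drives osteoclast formation through its receptor RANK, gave 1 array at day 1 and 2 arrays at each of days 2, 4 and 5. Control cells cultured without RANKL gave 1 array at day 1, 2 arrays at each of days 2, 3 and 4, and 1 array at day 5. RANKL or RANKL-free medium was given in serum-free alpha-MEM on days 0 and 3, and RANKL cells of day 3 were not analysed here. All groups are 1 cell line. No label states that replicate arrays came from different cultures, and the p-values may therefore reflect technical variation alone.

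The V-ATPase is a rotary machine that uses ATP to push protons across membranes. Its V1 sector, in the cytosol, binds and splits ATP, and its V0 sector, in the membrane, carries the protons. In most cells the pump acidifies endosomes and lysosomes, whereas in osteoclasts it is also placed in the ruffled border, where it acidifies the space above the bone and dissolves the mineral.

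Signals are given in the units of the authors' MAS5 values, and differences are log2(signal + 32) with the standard error from limma. Levels of different probe sets are not on a shared scale, so each gene is compared only with itself, and the marker sums below are descriptions led by the brightest probe sets. The median signal of an array ran from 103 to 149, replicate arrays correlated across probe sets at r = 0.975 to 0.984, and the ratio of the beta-actin 3' probe set to its 5' probe set, a sign of RNA quality, was 1.02 to 1.39 on RANKL arrays and 1.01 to 1.25 on control arrays. All 10 macrophage markers were measured and 8 had a signal over 100 on every array, with summed signals of 43259 to 80544 on RANKL arrays and 62674 to 80325 on control arrays. Of these 10, 3 were lower with RANKL over days 1, 2, 4 and 5 on the log2 scale: Fcgr1 at -1.77 ± 0.34, Itgam at -1.08 ± 0.19 and Adgre1 at -0.76 ± 0.11 (limma, adjusted p = 0.0318, 0.0171 and 0.00618). Of all probe sets 1.09% passed, in either direction. The median over the 10 markers was -0.21, and 3 of them had positive differences. The summed signal of the 6 measured osteoclast markers was 5598 to 31168 on RANKL arrays and 1064 to 6192 on control arrays. The lowest RANKL sum and the highest control sum were those of day 1. Over the 4 days 4 of the 6 were higher with RANKL, against the same 1.09%, while Calcr and Itgb3 were under 100 on every array and did not pass. Acp5, the osteoclast acid phosphatase, had signals of 5066 to 12283 on the 6 RANKL arrays of days 2, 4 and 5 and 43.5 to 257 on the 5 control arrays of those days, and Ctsk, the collagen-cutting protease of osteoclasts, had 1051 to 7481 and 151 to 285 on the same RANKL and control arrays. The day 1 arrays stood apart from this: Acp5 was 535 on the RANKL array and 992 on the control array, the highest control value, and Ctsk was 171 on the RANKL array and 271 on the control array. Nfatc1 was 4548 on the RANKL array and 4410 on the control array of day 1. On arrays of days 2, 4 and 5 it was 3075 to 6460 with RANKL and 380 to 2134 in control cells. Counts over all days are therefore also given without day 1. Of 4 measured T cell markers 3 stayed under 100 on all arrays. In such bulk samples, fewer cells of a type and less RNA per cell cannot be told apart.

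The promoters of 3 members share an 8-base palindrome, TCACGTGA, and are shown for that reason. It is the core of the site bound by the lysosomal gene regulators of the MiT family, which includes Tfeb and Mitf. The sequences are RefSeq's (GRCm38.p6), read 5' to 3' on the strand of the gene, from 250 bases before to 50 bases after the start given there, with the palindrome in capitals. They are those of Atp6v0d1 (chr8:105566015-105566314, minus strand), Atp6v0e (chr17:26676146-26676445, plus strand) and Atp6v1a (chr16:44139210-44139509, minus strand).
Atp6v0d1: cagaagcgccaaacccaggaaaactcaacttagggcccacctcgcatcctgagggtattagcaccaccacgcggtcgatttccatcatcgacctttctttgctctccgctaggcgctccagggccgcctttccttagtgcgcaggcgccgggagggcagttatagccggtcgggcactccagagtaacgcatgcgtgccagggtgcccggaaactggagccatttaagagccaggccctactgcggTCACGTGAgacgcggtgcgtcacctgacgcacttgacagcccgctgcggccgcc
Atp6v0e: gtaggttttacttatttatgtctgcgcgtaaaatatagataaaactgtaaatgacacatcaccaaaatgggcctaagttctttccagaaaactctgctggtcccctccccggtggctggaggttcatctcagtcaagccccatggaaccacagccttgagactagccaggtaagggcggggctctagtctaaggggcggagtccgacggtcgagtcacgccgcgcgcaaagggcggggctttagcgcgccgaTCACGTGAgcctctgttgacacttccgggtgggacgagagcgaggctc
Atp6v1a: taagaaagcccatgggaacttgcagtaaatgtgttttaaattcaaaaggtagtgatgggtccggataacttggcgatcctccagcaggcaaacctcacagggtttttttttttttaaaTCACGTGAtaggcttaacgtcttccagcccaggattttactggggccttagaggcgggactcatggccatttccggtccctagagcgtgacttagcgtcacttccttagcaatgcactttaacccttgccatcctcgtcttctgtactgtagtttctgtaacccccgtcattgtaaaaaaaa

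The palindrome begins 4 bases before the start in Atp6v0d1, at base 3 of the transcribed side in Atp6v0e and 132 bases before the start in Atp6v1a. Promoter entries were found for 9 of the 10 members, Atp6v1b2 being named only. TCACGTGA occurs in 3 of these 9 genes and in 1.41% of 17492 protein-coding genes, those of chromosome 18 left out. The shorter CACGTG, which lies inside the palindrome and reads the same on both strands, occurs in the same 3 members and in 8.91% of genes. TCATGTG, searched on both strands, was found among the members in 1 start of Atp6v0c alone (3.56% of genes), and TGACTCA, the AP-1 site, in 0 members (5.40% of genes). Among 10 other V-ATPase genes with promoter entries, 0 held the palindrome and 1, Atp6v0b, held the shorter motif that lies inside it. In Atp6v0b it stood within TCACGTG, the palindrome without its last base, which occurs in the same 3 members and in 5.00% of genes. The full palindrome was therefore not a general trait of the pump promoters read here. Those of Atp6v0a2, Atp6v0d2, Atp6v1c1, Atp6v1g1 and Atp6v1h were not read. Such a match is a description of letters. By their brightest probe sets, the differences between RANKL and control cells at single days were 0.43 to 0.69 for Atp6v0e, 0.24 to 0.73 for Atp6v1a and -0.17 to 0.15 for Atp6v0d1.

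The main comparison asks which pump genes differ between RANKL and control cells cultured for the same time. Over days 1, 2, 4 and 5, 2 of the 13 probe sets were higher with RANKL and 0 were lower, against 1.09% of all probe sets past the threshold (limma, adjusted p under 0.05). They belong to Atp6v0e in the V0 sector and Atp6v1a in the V1 sector. Without either day 1 array, where day 1 leaves the mean, 8 of the 13 passed (427 of all probe sets), and without the control array of day 5 only 1 did (11 of all probe sets). With each gene represented by its brightest probe set, 8 of 9 members had positive differences, against 50.6% of all genes, and their median was 0.49, against 0.003 over all genes. At an unadjusted p under 0.05 there were 7 of 9 members, against 12.2% of genes, and Atp6v0d1 and Atp6ap1 were the other two.

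Among the V0 genes, Atp6v0e, which encodes a small membrane subunit, had a signal of 5496 on the RANKL array of day 1, 5735 and 6667 at day 2, 6716 and 6645 at day 4, and 5784 and 7361 at day 5. In control cells it was 4078 at day 1, 5210 and 3823 at day 2, 4529 and 4469 at day 3, 4014 and 4279 at day 4, and 4028 at day 5. Every RANKL array lay above every control array. Atp6v0e rose by 0.57 ± 0.11 over the 4 days (limma, adjusted p = 0.0375), with differences of 0.43 ± 0.27, 0.47 ± 0.19, 0.68 ± 0.19 and 0.69 ± 0.24 at days 1, 2, 4 and 5, none past the threshold alone. It was the 1 member whose 6 RANKL arrays of days 2, 4 and 5 were all above the 5 control arrays of those days, which holds for 0.957% of all genes. Its call was lost in 13 of 23 alternatives, at differences of 0.51 to 0.62 and an adjusted p of up to 0.187 (limma). These were the fits with the beta-actin ratio, with the replicate block and with no intensity trend, and those without control day 2 replicate 2, without any 1 array of control days 3, 4 or 5, without RANKL day 2 replicate 2, without either RANKL day 4 array and without RANKL day 5 replicate 2.

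Tcirg1 encodes the a subunit isoform that osteoclasts use at the ruffled border, and its loss causes osteopetrosis in mice and humans. Its signal in RANKL cells was 2052 at day 1, 3101 and 2473 at day 2, 5355 and 7419 at day 4, and 3776 and 3636 at day 5. In control cells it was 1763 at day 1, 1989 and 2554 at day 2, 2786 and 3499 at day 3, 2865 and 2823 at day 4, and 2943 at day 5. The day 4 RANKL arrays stood far above all others, and at day 2 the groups overlapped. The difference with RANKL was 1.14 ± 0.21 at day 4 (limma, adjusted p = 0.0554) and 0.49 ± 0.12 over the 4 days (limma, adjusted p = 0.0923), neither past the threshold. By mean signal the order was RANKL day 4 at 6387, RANKL day 5 at 3706, control day 3 at 3143, control day 5 at 2943, control day 4 at 2844, RANKL day 2 at 2787, control day 2 at 2271, RANKL day 1 at 2052 and control day 1 at 1763. The 4 means from control day 3 to RANKL day 2 in this order lay within the SD of the control day 3 replicates (504, n = 2), and RANKL day 1 differed from control day 2 by less than the SD of the control day 2 replicates (399, n = 2).

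Atp6v0d1, the widely expressed d subunit that couples the rotor to the central stalk, had signals of 3765 at day 1, 3481 and 4073 at day 2, 4720 and 4389 at day 4, and 3943 and 3652 at day 5 in RANKL cells. In control cells they were 3386 at day 1, 3279 and 3781 at day 2, 4970 and 4069 at day 3, 5432 and 4509 at day 4, and 4260 at day 5. RANKL and control arrays overlapped at days 2 and 4, and both day 5 RANKL arrays lay below the control array of that day. The difference over the 4 days was -0.01 ± 0.10 (limma, adjusted p = 0.988). Atp6v0d2, which encodes another d isoform, was not measured here, so these values cover Atp6v0d1 alone.

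**Figure D1:**
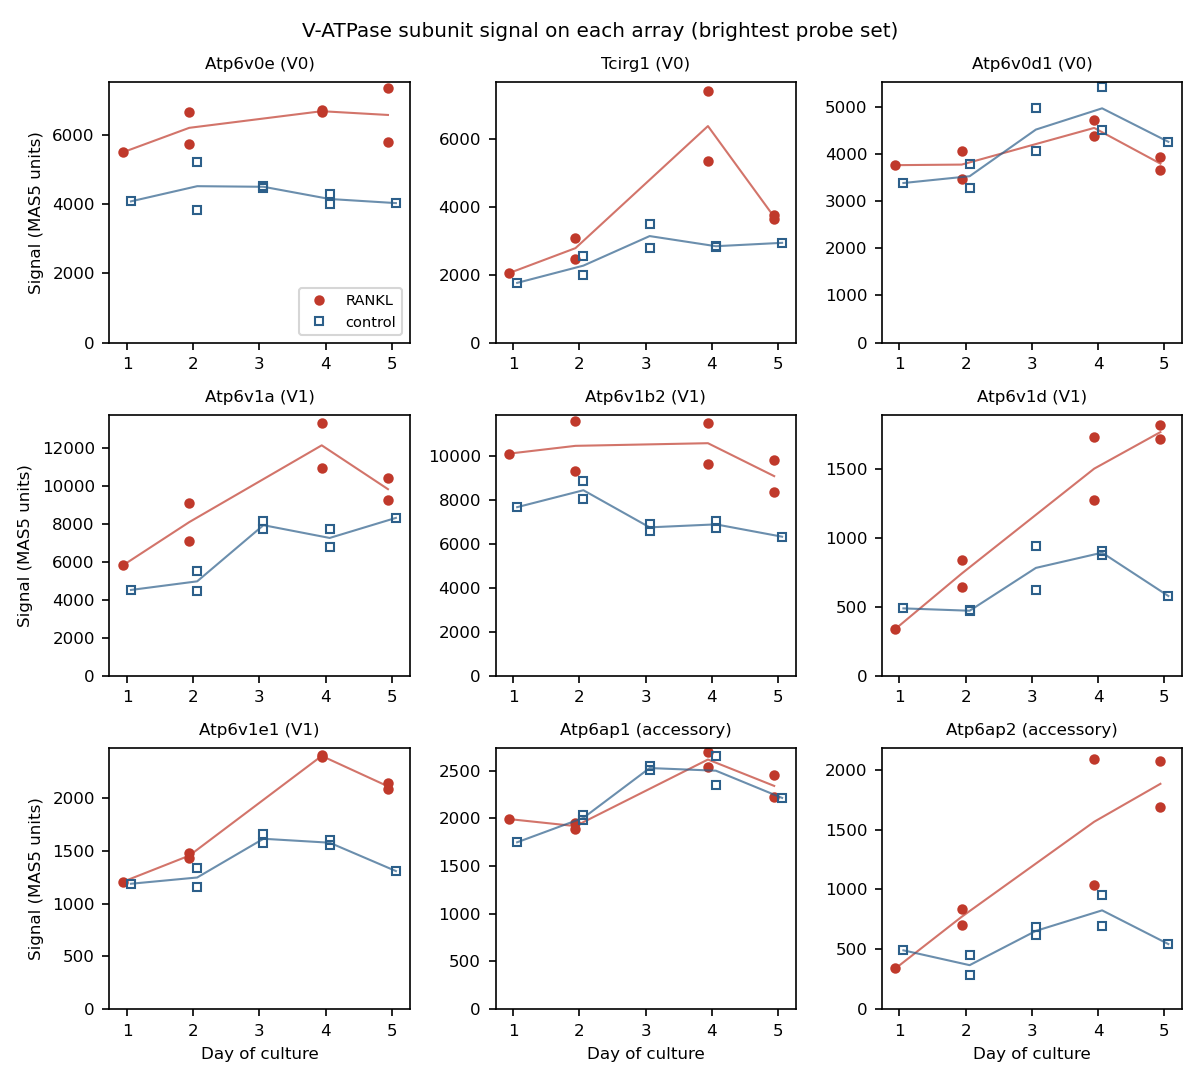
MAS5 signal (vertical axis, from 0, each panel with its own scale) against day of culture for the brightest probe set of each of the 9 measured members. Filled circles are RANKL arrays, open squares control arrays and lines join group means. The Tcirg1 signal is highest on the RANKL arrays of day 4 (5355 and 7419), Atp6v1d and Atp6ap2 on RANKL arrays stand apart from control arrays at days 4 and 5, and Atp6v0d1 and Atp6ap1 run close to control throughout.

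Among the V1 genes, Atp6v1a, the catalytic subunit that splits ATP, has 3 probe sets. On 95745_g_at the signal in RANKL cells was 3488 at day 1, 2954 and 3506 at day 2, 6798 and 8026 at day 4, and 5532 and 5648 at day 5. In control cells it was 2214 at day 1, 2218 and 1869 at day 2, 3258 and 3757 at day 3, 3071 and 3740 at day 4, and 3696 at day 5. On each day measured in both, every RANKL array was above every control array. By this probe set Atp6v1a rose by 0.75 ± 0.11 over the 4 days (limma, adjusted p = 0.00618), a call kept in all 23 alternatives (0.71 to 0.81).

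The brightest Atp6v1a probe set, 95746_at, had signals of 5820 at day 1, 7108 and 9078 at day 2, 10966 and 13303 at day 4, and 10408 and 9246 at day 5 in RANKL cells. In control cells they were 4522 at day 1, 5499 and 4452 at day 2, 7728 and 8135 at day 3, 6792 and 7725 at day 4, and 8315 at day 5. Here too no RANKL array fell among the control arrays of its day, but the difference of 0.51 ± 0.12 did not pass (limma, adjusted p = 0.072). The third probe set, 95744_at, ran from 1261 to 1889 on RANKL arrays of days 2, 4 and 5 and from 1137 to 1536 on control arrays of those days, and its difference was 0.13 ± 0.10 (limma, adjusted p = 0.744). At day 4 it had the opposite sign (-0.11 ± 0.17), so the probe sets of this gene disagree in size and, at that day, in direction.

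**Figure D2:**
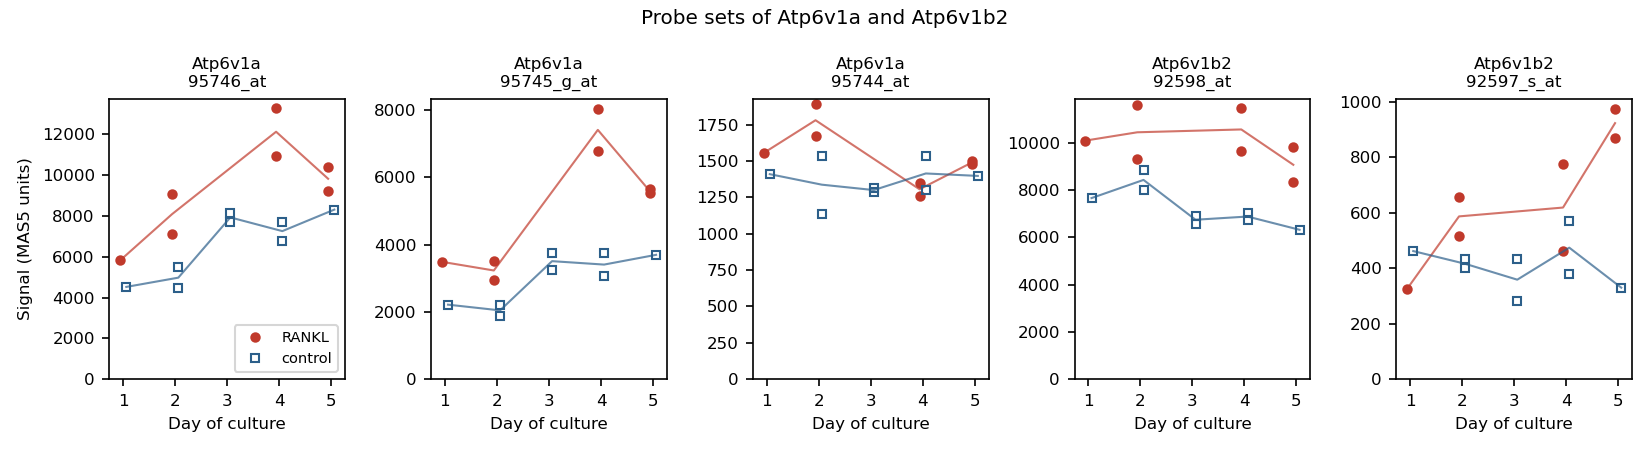
MAS5 signal (vertical axis, from 0, own scale in each panel) against day of culture for the 3 probe sets of Atp6v1a and the 2 of Atp6v1b2, with RANKL arrays as filled circles, control arrays as open squares and lines through group means. For Atp6v1a, 95746_at and 95745_g_at separate RANKL from control arrays on each day, whereas on 95744_at the groups overlap at day 4.

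Atp6v1b2 encodes the nucleotide-binding B subunit isoform of osteoclasts and many other cells. On 92598_at its signal in RANKL cells was 10097 at day 1, 9300 and 11600 at day 2, 9643 and 11497 at day 4, and 9807 and 8341 at day 5. In control cells it was 7664 at day 1, 8852 and 8014 at day 2, 6912 and 6583 at day 3, 7026 and 6739 at day 4, and 6322 at day 5. RANKL arrays were above control arrays of the same day throughout, with a difference of 0.46 ± 0.11 that did not pass (limma, adjusted p = 0.0886). The dimmer 92597_s_at lay between 325 and 977 on RANKL arrays and between 283 and 570 on control arrays, with its largest difference at day 5 (1.40 ± 0.35; limma, adjusted p = 0.0866).

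Atp6v1d encodes the shaft that turns inside V1 and links it to the rotor. Its signal in RANKL cells was 340 at day 1, 646 and 837 at day 2, 1273 and 1730 at day 4, and 1819 and 1715 at day 5. In control cells it was 489 at day 1, 470 and 474 at day 2, 944 and 621 at day 3, 908 and 877 at day 4, and 579 at day 5. The RANKL array of day 1 was the lowest of all 15, and the 4 RANKL arrays of days 4 and 5 were the highest. At day 5 Atp6v1d rose by 1.56 ± 0.27 with RANKL, or 2.94-fold (limma, adjusted p = 0.0238). This call was lost with the replicate number as a block and without control day 2 replicate 1 or 2 or RANKL day 5 replicate 2, and over all 21 alternatives the difference was 1.43 to 1.61, with an adjusted p of at most 0.079 (limma). Over the 4 days the difference was 0.60 ± 0.13 (limma, adjusted p = 0.0572).

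Atp6v1e1, a subunit of the peripheral stalk that holds V1 still, had signals of 1208 at day 1, 1482 and 1429 at day 2, 2389 and 2415 at day 4, and 2085 and 2141 at day 5 in RANKL cells. In control cells they were 1189 at day 1, 1158 and 1338 at day 2, 1573 and 1659 at day 3, 1554 and 1603 at day 4, and 1309 at day 5. The groups lay close together at day 1 and were separate from day 2 on. The differences were 0.60 ± 0.14 at day 4 (limma, adjusted p = 0.199) and 0.68 ± 0.17 at day 5 (limma, adjusted p = 0.0966), with 0.38 ± 0.08 over the 4 days (limma, adjusted p = 0.0606).

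Of the accessory genes, Atp6ap2 encodes the prorenin receptor, a membrane protein that is cleaved and takes part in pump assembly. Its signal in RANKL cells was 339 at day 1, 839 and 703 at day 2, 1039 and 2092 at day 4, and 2073 and 1691 at day 5. In control cells it was 491 at day 1, 453 and 281 at day 2, 688 and 619 at day 3, 694 and 956 at day 4, and 543 at day 5. The day 4 RANKL arrays differed widely from each other, and the lower of them was just above the higher control array. The differences of 0.78 ± 0.18 over the 4 days (limma, adjusted p = 0.0771) and 1.73 ± 0.38 at day 5 (limma, adjusted p = 0.0615) did not pass.

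Atp6ap1, the accessory protein that guides assembly of the V0 sector, had signals of 1993 at day 1, 1889 and 1950 at day 2, 2543 and 2692 at day 4, and 2453 and 2229 at day 5 in RANKL cells. In control cells they were 1750 at day 1, 1979 and 2033 at day 2, 2506 and 2551 at day 3, 2652 and 2349 at day 4, and 2215 at day 5. At day 2 both RANKL arrays lay below both control arrays, at day 4 the groups overlapped, and the difference over the 4 days was 0.07 ± 0.08 (limma, adjusted p = 0.881). Its other probe set, 161806_r_at, was at or below 143 on all arrays and had the opposite sign (-0.24 ± 0.21).

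**Figure D3:**
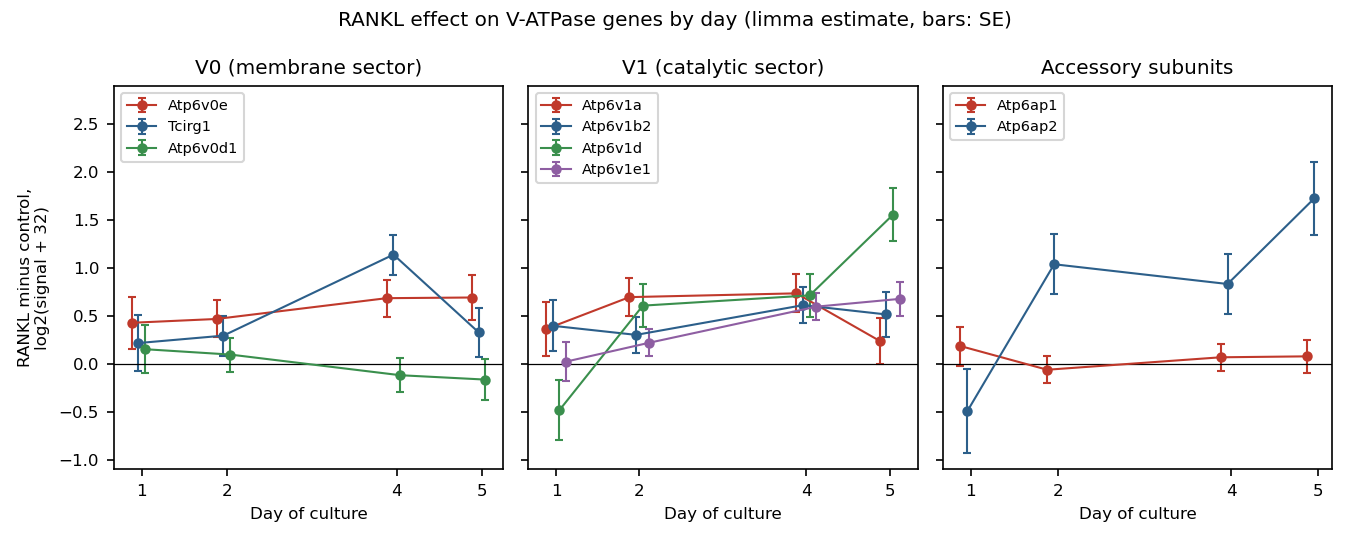
RANKL minus control difference on the log2(signal + 32) scale (vertical axis) at days 1, 2, 4 and 5 (horizontal axis) for the brightest probe set of each member, in panels for V0, V1 and accessory genes, with bars for the standard error from limma. Tcirg1 peaks at day 4 (1.14), Atp6v1d and Atp6ap2 are highest at day 5 (1.56 and 1.73), and Atp6v0d1 and Atp6ap1 stay near 0.

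By single days the RANKL effect passed the threshold for few probe sets. At day 1, with 1 array against 1, it was 0 of 13 member probe sets (limma), against 0% of all probe sets. None of the 9 brightest probe sets reached an unadjusted p under 0.05 at that day. At day 2 it was again 0 of 13 (limma), against 0.853%, with 4 of 9 members at an unadjusted p under 0.05, against 11.04% of all genes. At day 4 it was 1 of 13, against 0.266%, namely 95745_g_at of Atp6v1a, which rose by 1.12 ± 0.18 (limma, adjusted p = 0.0286). That call was lost with the beta-actin ratio as a covariate, without an intensity trend, and without any 1 array of control days 3 and 4 or RANKL day 4 replicate 2 (0.98 to 1.26 over 22 alternatives, adjusted p at most 0.359 with limma). At day 5 it was 1 of 13, Atp6v1d, against 0.918%. The median difference over the 9 members was 0.18, 0.30, 0.68 and 0.51 at days 1, 2, 4 and 5, against -0.06, 0.0005, -0.02 and 0.10 over all genes.

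At days 4 and 5, when the labels call the RANKL cells multi-nuclear, the arrays of most members separated. For 7 of the 9 members all 4 RANKL arrays of these days were above all 3 control arrays, which was the case for 5.73% of all genes. The exceptions were Atp6v0d1, with 3652 to 4720 on RANKL arrays and 4260 to 5432 on control arrays, and Atp6ap1, with 2229 to 2692 on RANKL arrays and 2215 to 2652 on control arrays. This way of counting was chosen after the values were seen. The same 7 members were also above the 5 control arrays of days 3 to 5, against 3.22% of all genes. Of the 7 other V-ATPase genes measured, 1, Atp6v1h, was above the control arrays in both counts. Of the osteoclast markers, Acp5, Ctsk, Mmp9 and Nfatc1 were also higher on these RANKL arrays, whereas Itgb3 had 10.7 to 31.2 on RANKL arrays and 11.3 to 21.2 on control arrays. Calcr, like Itgb3 under 100 on every array, had 1.77 to 27.2 and 2.41 to 4.77. Among the macrophage markers, 1 of 10, Adgre1, was lower with RANKL at day 5 (-1.14 ± 0.22; limma, adjusted p = 0.038), against 0.918% of all probe sets past the threshold. At day 4, 0 of the 10 passed (limma), against 0.266%. The part of these markers in the result was not tested.

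Whether the RANKL effect grew with time was tested as the late minus early difference, the effect of days 4 and 5 minus that of days 1 and 2. None of the 13 member probe sets passed (limma), against 0.0403% of all probe sets, and 3 of 9 members had an unadjusted p under 0.05, against 8.42% of all genes. The largest values were 1.08 ± 0.26 for Atp6v1d (limma, adjusted p = 0.347) and 1.01 ± 0.37 for Atp6ap2 (limma, adjusted p = 0.571). Both lean on day 1. Over 23 alternatives they ran from 0.53 to 1.18 for Atp6v1d and from 0.24 to 1.25 for Atp6ap2, and each was lowest without day 1. The median over the members was 0.24, against 0.08 over all genes.

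Culture time itself was followed within each treatment as the mean of days 4 and 5 minus the mean of days 1 and 2. In RANKL cells 6 of 13 member probe sets passed, all higher, against 14.8% of all probe sets. They represent 5 of 9 members: Atp6v1d rose by 1.63 ± 0.18 (limma, adjusted p = 0.000518), Atp6ap2 by 1.64 ± 0.25 (limma, adjusted p = 0.00181), Tcirg1 by 1.01 ± 0.16 (limma, adjusted p = 0.00258), Atp6v1e1 by 0.75 ± 0.11 (limma, adjusted p = 0.00179) and Atp6v1a by 0.67 ± 0.16 on 95746_at and 0.93 ± 0.14 on 95745_g_at (limma, adjusted p = 0.0155 and 0.00188). These calls were kept in all 23 alternatives, except that of 95746_at, which was lost without the RANKL array of day 1, without RANKL day 5 replicate 1 and without the day 1 arrays (0.44 to 0.92 over the alternatives). Without the RANKL array of day 1 the values for Atp6v1d and Atp6ap2 were the lowest of their ranges, 1.11 to 1.90 and 1.08 to 1.88. The third probe set of Atp6v1a, 95744_at, had the opposite sign (-0.25 ± 0.14).

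In control cells 2 of 13 passed, against 10.9% of all probe sets, and both belong to Atp6v1a. It rose without RANKL by 0.71 ± 0.17 on 95746_at (limma, adjusted p = 0.0234) and by 0.73 ± 0.16 on 95745_g_at (limma, adjusted p = 0.0131). Both calls were lost with the beta-actin ratio as a covariate, and that of 95746_at also without the control array of day 1, the day 1 arrays, control day 2 replicate 2, control day 4 replicate 2 or the control array of day 5 (0.61 to 0.91 over its alternatives, adjusted p at most 0.0946 with limma). In control cells Tcirg1 (0.53 ± 0.18; limma, adjusted p = 0.0868), Atp6v1d (0.55 ± 0.19; limma, adjusted p = 0.0946), Atp6ap2 (0.63 ± 0.27; limma, adjusted p = 0.179), Atp6v0d1 (0.41 ± 0.15; limma, adjusted p = 0.124) and Atp6v1e1 (0.23 ± 0.12; limma, adjusted p = 0.284) did not pass. The median over the members was 0.67 in RANKL cells and 0.41 in control cells, against 0.05 and -0.04 over all genes, and the difference between the treatments is the late minus early comparison given above.

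The steps between days 2 and 4 and between days 4 and 5 in RANKL cells were compared after the values were seen. Of 13 member probe sets 4 passed for day 4 minus day 2, against 12.5% of all probe sets: Tcirg1 (1.18 ± 0.21; limma, adjusted p = 0.00425), 95745_g_at of Atp6v1a (1.19 ± 0.18; limma, adjusted p = 0.0021), Atp6v1d (0.98 ± 0.22; limma, adjusted p = 0.0147) and Atp6v1e1 (0.71 ± 0.14; limma, adjusted p = 0.00801). For day 5 minus day 4, 0 of 13 passed (limma), against 0.636%. The lowest unadjusted p of that step was 0.00354, for Tcirg1 (-0.76 ± 0.21; limma, adjusted p = 0.151), whose signal on both day 5 arrays lay below that of both day 4 arrays. In control cells 2 of 13 passed for the same step between days 2 and 4, against 4.47% of all probe sets: Atp6v1d (0.88 ± 0.22; limma, adjusted p = 0.0492) and 95745_g_at of Atp6v1a (0.73 ± 0.18; limma, adjusted p = 0.0446). Tcirg1 had 0.33 ± 0.21 there (limma, adjusted p = 0.478). For Atp6ap2 this step was 0.91 ± 0.31 in RANKL cells (limma, adjusted p = 0.0823) and 1.12 ± 0.31 in control cells (limma, adjusted p = 0.0674).

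The members also differed in their course over the 9 groups, as measured by the root mean square difference of group means of log2(signal + 32), each gene centred on its own mean. Courses were not scaled, so this measure reflects the size of the changes as well as their shape. Among all 8251 genes, Atp6v1d and Atp6ap2 were each other's nearest gene, at 0.138, against a median of 0.723 to all genes for Atp6v1d and 0.782 for Atp6ap2. For Tcirg1 the nearest gene was Atp6v1a, at 0.18, while for Atp6v1a Tcirg1 came at rank 4. For the others the nearest member came at rank 6 for Atp6v0e, 7 for Atp6v0d1, 15 for Atp6ap1, 19 for Atp6v1b2 and 136 for Atp6v1e1. The nearest genes outside the members were Rgs10, Srsf5 and Akap8l for Tcirg1, Riok3, Gas5 and Ddx17 for Atp6v1a, and Slc25a4, Pla2g2c and Tax1bp3 for Atp6v0e. They were Csf2rb2, Stxbp3 and Hsd3b7 for Atp6v1d, Bhlhe40, Zfand5 and Stxbp3 for Atp6ap2, and Nacc2, Rnf103 and Gpr137b for Atp6v1e1. All these values come from the same 15 arrays and are descriptions.

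Of 15 other V-ATPase genes, 7 were measured, and 0 passed over the 4 days (limma), with 3 at an unadjusted p under 0.05, against 12.2% of all genes, and a median of 0.15, against 0.003 over all genes. The nearest was Atp6v1h, the H subunit of V1, at 0.40 ± 0.09 (limma, adjusted p = 0.0572). Its signal was 1782 to 2170 on the 6 RANKL arrays of days 2, 4 and 5 and 1271 to 1574 on the 5 control arrays of those days, with no overlap. It was the 1 gene of the 7 with all these RANKL arrays above the control arrays, which holds for 0.957% of all genes. Differences were 0.33 ± 0.10 for Atp6v0b, a proteolipid, 0.31 ± 0.17 for Atp6v1g1, 0.15 ± 0.11 for Atp6v1c1 and 0.05 ± 0.11 for Atp6v0e2. Of the other isoforms of the a subunit, Atp6v0a1 had -0.43 ± 0.19 (limma, adjusted p = 0.442) and Atp6v0a2 had -0.12 ± 0.14 (limma, adjusted p = 0.865), and the less bright probe sets of both had the opposite sign. That of Atp6v0a1 was at most 37.7 on all arrays, close to background. Those of Atp6v0a2 were brighter. On the arrays of days 2, 4 and 5, 160960_at had 370 to 594 with RANKL and 316 to 394 in control cells, and 102273_at had 242 to 389 and 217 to 371. With culture time, 2 of the 7 passed in RANKL cells, against 14.8% of all probe sets, and 1 in control cells, against 10.9%. Atp6v0a1 rose in RANKL cells by 1.13 ± 0.26 (limma, adjusted p = 0.0139) and in control cells by 1.36 ± 0.29 (limma, adjusted p = 0.012), and Atp6v1c1 rose in RANKL cells by 0.81 ± 0.15 (limma, adjusted p = 0.00502). The Atp6v1c1 call was lost without the RANKL array of day 1 and without the day 1 arrays (0.33 to 0.99 over the alternatives). The Atp6v0a1 call in RANKL cells was lost without RANKL day 2 replicate 2 and without the day 1 arrays (0.86 to 1.40), and that in control cells with the beta-actin ratio and without the control array of day 5 (1.07 to 1.51).

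Of 14 assembly factors and pump regulators, among them the Ragulator (Lamtor) genes that dock the nutrient sensor mTORC on lysosomes, 9 were measured. None passed over the 4 days (limma), against 1.09% of all probe sets. At an unadjusted p under 0.05 there were 0, against 12.2% of all genes, and the median was -0.06, against 0.003. The widest difference was -0.35 ± 0.17 for Lamtor4 (limma, adjusted p = 0.492). With culture time 1 of the 9, Rnasek, a small membrane protein bound to V0, was lower in RANKL cells (-0.47 ± 0.14; limma, adjusted p = 0.0407) and in control cells (-0.52 ± 0.15; limma, adjusted p = 0.0483). The shares of all probe sets past the threshold there were 14.8% and 10.9%. Of 23 alternatives, the replicate block and the beta-actin ratio among them, 14 lost the call in RANKL cells and 15 that in control cells.

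Of 10 partners of the pump in acid secretion, 6 were measured and 3 rose with RANKL over the 4 days, against 1.09% of all probe sets past the threshold. Slc4a2, the exchanger that brings in chloride for bicarbonate, rose by 0.89 ± 0.10 (limma, adjusted p = 0.00118), Car2, the carbonic anhydrase that supplies protons, by 0.71 ± 0.11 (limma, adjusted p = 0.00844), and Slc9b2, a sodium/proton exchanger of osteoclasts, by 1.46 ± 0.25 (limma, adjusted p = 0.0162). These 3 calls were lost without the control array of day 5, where day 5 leaves the comparison (adjusted p up to 0.0753 for Slc4a2, 0.154 for Car2 and 0.322 for Slc9b2 over their alternatives with limma), and that of Slc9b2 also with a pseudocount of 100 and without control day 2 replicate 2 or control day 4 replicate 2. The Slc9b2 signal was at most 31.1 on control arrays, and its difference was 0.89 to 2.34 over the alternatives. Slc4a2 had 1259 to 2174 on RANKL arrays and 598 to 1281 on control arrays. Clcn7, the chloride transporter of the ruffled border, had 0.41 ± 0.12 (limma, adjusted p = 0.15), while Snx10 had 0.10 ± 0.14 and Clcn3 -0.30 ± 0.16.

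With culture time, 5 of the 6 partners were higher in RANKL cells, against 14.8% of all probe sets, and 2 were higher and 1 lower in control cells, against 10.9%. Clcn7 rose by 1.23 ± 0.16 in RANKL cells (limma, adjusted p = 0.000965) and by 0.70 ± 0.18 in control cells (limma, adjusted p = 0.0273). The call in control cells was lost in 7 of 23 alternatives: with the beta-actin ratio, without the control array of day 1, without the day 1 arrays and without any 1 array of control days 2 and 4 (adjusted p up to 0.142 with limma). Clcn3, an endosomal relative of Clcn7, rose by 0.92 ± 0.21 in RANKL cells (limma, adjusted p = 0.014) and by 0.97 ± 0.23 in control cells (limma, adjusted p = 0.0223), calls lost in 2 and 6 of 23 alternatives, the beta-actin ratio among them. Snx10, a sorting protein needed for osteoclast acid secretion, rose by 1.09 ± 0.18 in RANKL cells (limma, adjusted p = 0.00301). In RANKL cells Slc4a2 rose by 0.44 ± 0.13 (limma, adjusted p = 0.0421) and Slc9b2 by 1.12 ± 0.34 (limma, adjusted p = 0.0467), calls lost in 14 of 23 and 18 of 22 alternatives. Car2 fell by 0.92 in control cells (limma, adjusted p = 0.00526). Its control signal was 5949 at day 1 and 1886 and 1482 at day 4, but 4592 at day 5.

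**Figure D4:**
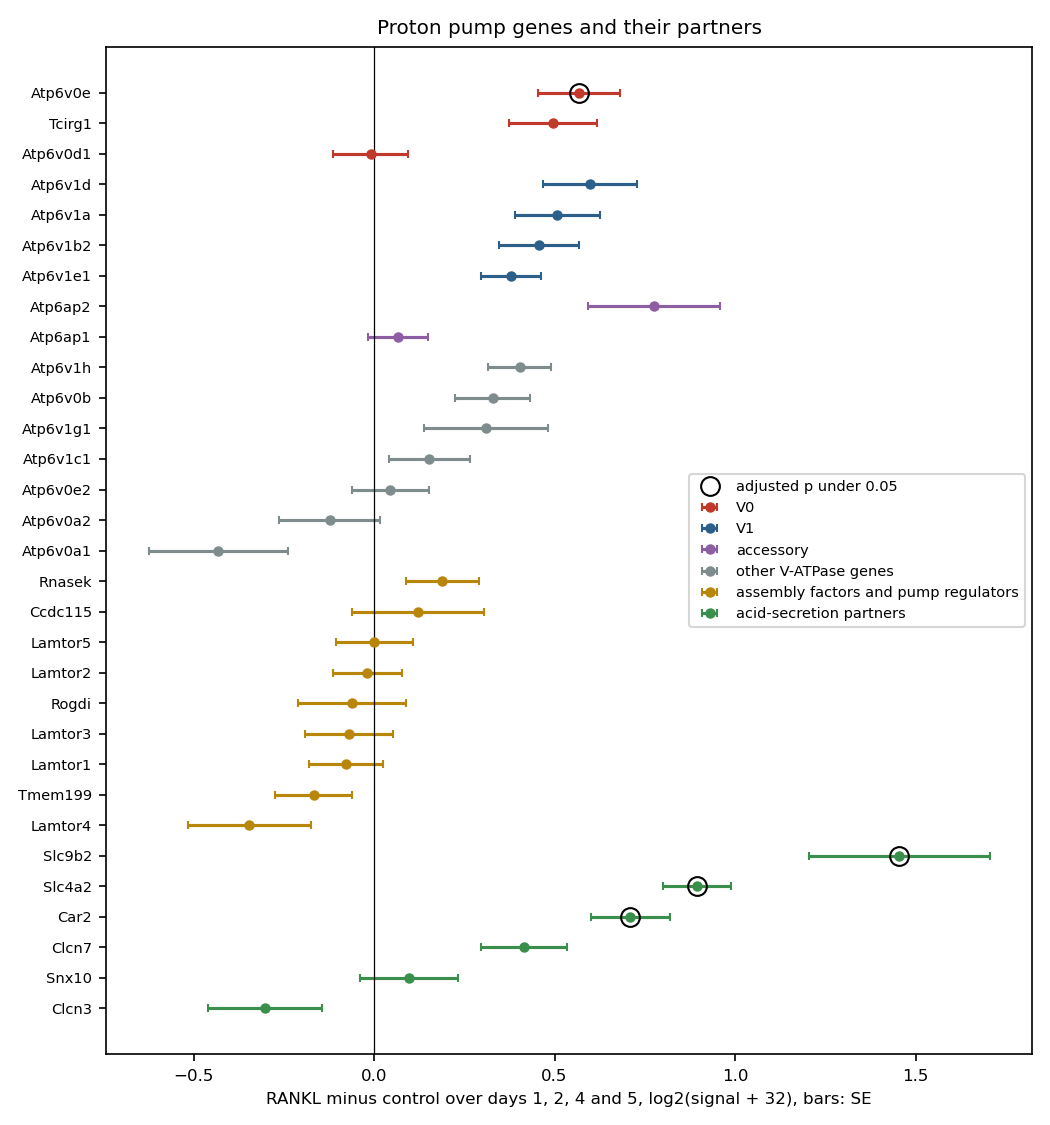
RANKL minus control difference over days 1, 2, 4 and 5 on the log2(signal + 32) scale (horizontal axis) for each measured V-ATPase gene, assembly factor and acid-secretion partner (vertical axis), by its brightest probe set, with bars for the standard error from limma and a ring around values with an adjusted p under 0.05. Of the members, Atp6v0e has a ring (0.57), and of the partners Slc9b2 (1.46), Slc4a2 (0.89) and Car2 (0.71) do.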

How the data were processed

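The authors deposited one linear intensity, or signal, per probe set and array, made with MAS5 per the submitters' processing notes. The MAS5 version is not given in the sources used here. Arrays already shared a 2% trimmed mean of 500 and were not normalized further. From 12488 probe sets 66 controls were left out, and all other 12422 were tested, dim ones included. The annotation gives 10833 of these 1 symbol, 396 several and 1193 none.

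The 15 arrays were fitted with 1 mean per treatment and day (9 groups) on log2(signal + 32), using lmFit and eBayes with an intensity trend (limma 3.58.1, R 4.3.3). The fit had 6 residual and 5.39 prior degrees of freedom, and a group of 1 array takes its spread from the rest. Two-sided p-values were adjusted by Benjamini-Hochberg over all probe sets in each of 8 comparisons, with a threshold of 0.05. The procedure was tested on simulated data. The number of arrays limits the precision.

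The members and lists were chosen with earlier results of these data known. All measured members and other V-ATPase genes are named, and from the assembly and acid-secretion lists those past the threshold or with the widest differences; Acp5 and Ctsk were named as the check of the treatment.

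Alternatives changed the pseudocount (1 or 100), added quantile normalization, a filter to the brighter 50% of probe sets, a replicate block or the beta-actin ratio as covariate, dropped the intensity trend, each array or day 1, or averaged a gene's probe sets. Replicate numbers did not pair the arrays: over 15 pairs of groups, the correlation of replicate differences was -0.17 to 0.12.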

Additional observations from a re-analysis of the deposited data

How the results depend on the processing

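The members' median difference was positive under every alternative run in each of the 8 comparisons. Over days 1, 2, 4 and 5, member probe sets past the threshold numbered 4 after quantile normalization and 8 in the upper 50% of probe sets (218 in all), against 2 (136 of 12422 in all) as reported. Totals for the upper 50% count only the probe sets kept, and their shares are not on the base of the others. They numbered 8 without the day 1 arrays (426 in all) and 1 with no intensity trend, with the replicate block and with the beta-actin ratio (64 in all). The replicate block gave 64 in all at day 5, with 0 members; it moved no other count of calls by over 1.5 times. In the upper 50%, members numbered 2 at day 4 and 3 at day 5 (244 in all), with 12 in all for late minus early. With no intensity trend the totals were 68 at day 2 and 3 for late minus early, with 0 members at day 4. With the beta-actin ratio they were 34 at day 2, 12 at day 4 (0 members), 1086 for time in RANKL cells and 169 for time in control cells (0 members). Without the day 1 arrays they were 2 for late minus early and 703 for time in control cells (1 member). Day 4 minus day 2 gave 555 in control cells. The members' median difference was 0.57, 0.75 and 0.43 at day 4, day 5 and late minus early after quantile normalization. It was 0.56 at day 4, 0.76 for time in RANKL cells and 0.53 for time in control cells with the beta-actin ratio, and 0.44 for time in RANKL cells without the day 1 arrays. With the mean of a gene's probe sets it was 0.022, 0.60 and 0.68 at days 1, 4 and 5, 0.48 for late minus early, 0.45 for time in RANKL cells and 0.49 for time in control cells. The cause of these shifts was not tested. With each array left out in turn, totals ran from 11 to 427 over the 4 days (1 to 8 members), 2 to 147 at day 2, 9 to 54 at day 4 (0 to 2 members), 52 to 355 at day 5 (0 to 2), 2 to 21 for late minus early, 1146 to 1972 for time in RANKL cells and 700 to 1410 for time in control cells (1 to 2). The extremes over the 4 days were those without the control array of day 5 and without a day 1 array, when that day leaves the mean. The median ran from 0.30 to 0.46 at day 2, 0.50 to 0.74 at day 4, 0.40 to 0.52 at day 5, 0.18 to 0.35 for late minus early, 0.44 to 0.74 for time in RANKL cells and 0.34 to 0.51 for time in control cells. Probe set 161806_r_at of Atp6ap1 is close to background, so its differences are imprecise.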
